A study of Ctenopharyngodon idella and Danio rerio with 13 samples.

Results

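The protein genes of the mitochondrial genome and the unnamed entries that stand beside them in the count tables were described in sperm of germline stem cell recipients, grass carp and zebrafish. The set holds 37 of the 31338 entries counted. It was chosen by name: the 13 entries ND1, ND2, ND3, ND4, ND4L, ND5, ND6, COX1, COX2, COX3, CYTB, ATP6 and ATP8, and the 24 entries whose identifier begins with unassigned_gene_. Outside the 24, all 31314 entries carry a gene name.

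Mitochondria keep a small circular genome of their own, inherited in most animals through the egg. In vertebrates it encodes 13 proteins, all of them subunits of the respiratory chain or of ATP synthase, together with 2 ribosomal RNAs and 22 transfer RNAs that serve their translation. Both strands are transcribed as long precursors that are cut largely at the tRNAs, and most of the mRNAs are polyadenylated. In sperm the mitochondria sit around the base of the flagellum and supply it with ATP.

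The study set sperm of germline stem cell transplantation (GSCT) recipients beside sperm of the species involved, to examine how alike they are genetically. The 3 GSCT libraries came from zebrafish recipients, carry grass carp (Ctenopharyngodon idella) as organism and have the genotype label "surrogate reproduction". The 5 grass carp libraries have the label "wildtype", and so do the 5 zebrafish (Danio rerio) libraries. Each library was made from the diluted sperm of 1 fish, with a full-length mRNA amplification kit built for single cells, and is labelled polyA RNA. Age, strain, donor line and the germ cells that the recipients still had are not given in the labels, and the series title speaks of female germline stem cells and all-X sperm. A GSCT library held between 377577 and 2620139 counts, unnamed entries included, a grass carp library between 1335397 and 5473843, and a zebrafish library between 1594 and 498726. The zebrafish libraries were counted on the same entries, whose symbols are those of grass carp genes, so their values also depend on which zebrafish reads align there. Zebrafish replicate 3 held only 487 named counts, and each count of calls against zebrafish is given with and without it.

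All 37 entries stood together as the last 37 of each file, in an unbroken run. The 13 named genes followed each other in the order of the grass carp gene table of RefSeq (assembly HZGC01), which lists just these 13 on the mitochondrial genome and names none of the 24 others. Textbook gene order in vertebrates places 5 RNA genes before ND1, in the sequence tRNA, small rRNA, tRNA, large rRNA, tRNA, and further tRNAs between most protein genes. The number of unnamed entries was the number of RNA genes of that order in 14 of 14 intervals. There were 5 unnamed entries before ND1, 3 between ND1 and ND2, 5 between ND2 and COX1, 2 between COX1 and COX2, and 1 between COX2 and ATP8. A further 1 stood between COX3 and ND3, 1 between ND3 and ND4L, 3 between ND4 and ND5, 1 between ND6 and CYTB, and 2 after CYTB. None lay between ATP8 and ATP6, ATP6 and COX3, ND4L and ND4, or ND5 and ND6. In the RefSeq table these 4 pairs of neighbours overlap, by 7, 1, 7 and 4 bases, so reads there can belong to either gene.

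Spacing in the same table was wide in 1 place. The 2868 bases before ND1, where textbook order has both rRNA genes, amount to 573.6 bases for each of the 5 entries there. The gap between ND1 and ND2 is 215 bases for 3 entries, that between ND2 and COX1 388 bases for 5, and those of a single entry are 70 to 77 bases. The files do not give the unnamed entries a gene, so they are called here by their number.

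**Figure D1:**
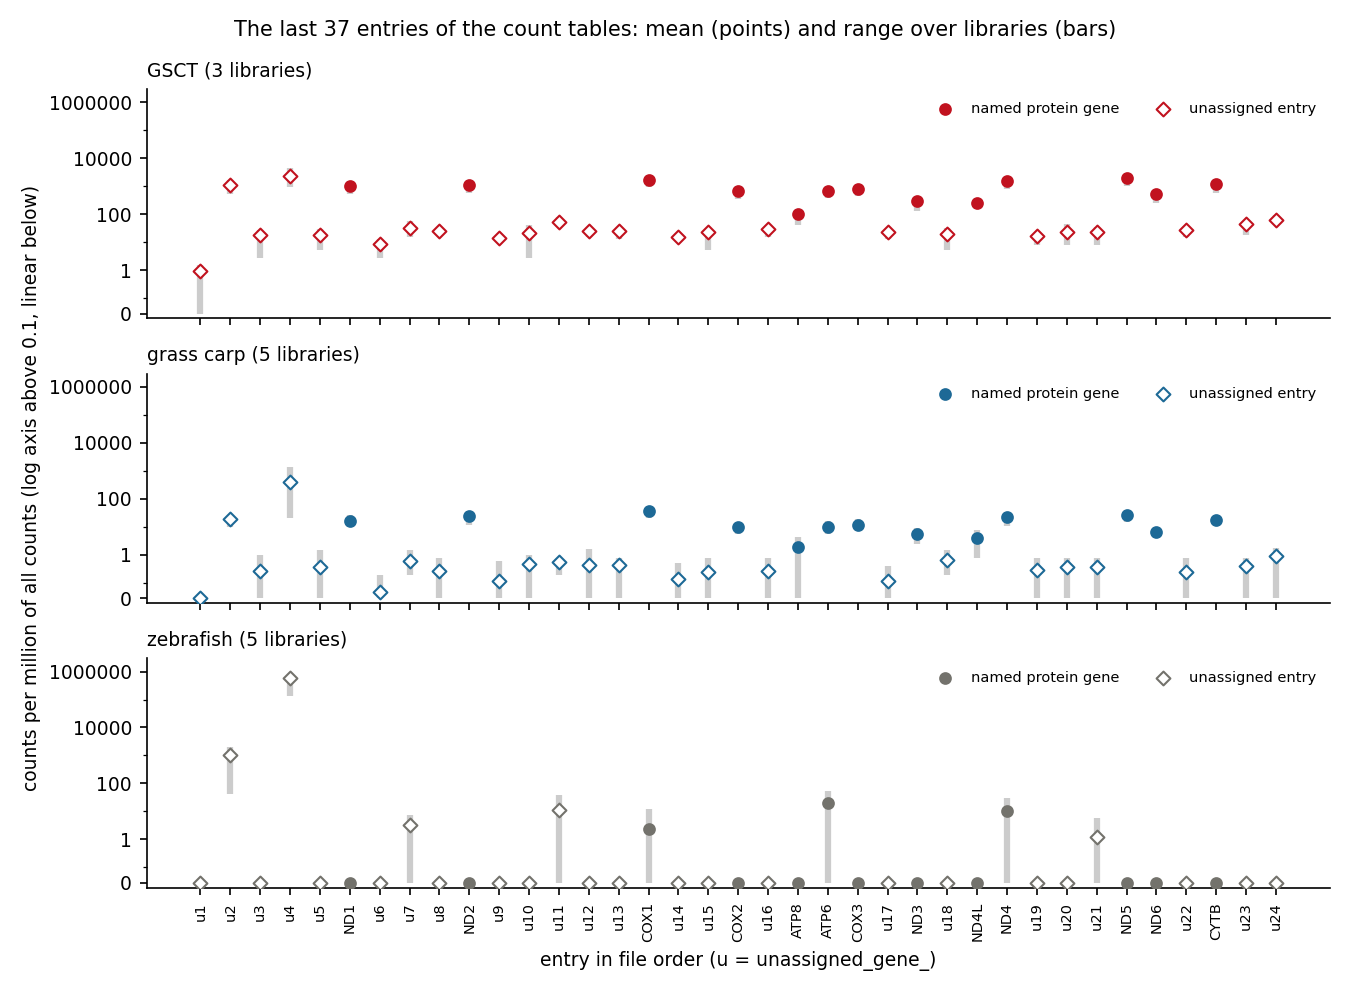
Counts per 1000000 of all counts (vertical, log axis above 0.1 and linear below) for the 37 entries in file order (horizontal), in GSCT, grass carp and zebrafish libraries from top to bottom; points are group means and bars the range over libraries. In GSCT and grass carp libraries the mean of entry 2 lies within the span of the protein genes. The mean of entry 4 is above all of them, at 2414 in GSCT (ND5 2040) and 397 in grass carp libraries (COX1 37.6). By library, entry 4 is below ND5 in GSCT replicate 2 (0.196% against 0.208% of all counts) and replicate 3 (0.0940% against 0.104%). It is close to COX1 in grass carp replicate 2 (0.00397% against 0.00400%) and replicate 3 (0.00213% against 0.00200%). Entry 4 reaches 63.1% to 77.7% of all counts in 4 of the 5 zebrafish libraries.

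Mitochondrial protein genes were higher in GSCT than in grass carp sperm, all 13 of them, by about the same factor. Together they took 1.79%, 1.22% and 0.618% of named counts in the 3 GSCT libraries, against 0.0278%, 0.0184%, 0.0113%, 0.0270% and 0.0131% in the 5 grass carp libraries. The mean share was 1.21% ± 0.587 for the GSCT group (SD, n = 3), against 0.0195% ± 0.00766 for the grass carp group (SD, n = 5). Every GSCT library lay above every grass carp library. The GSCT share was highest in the deepest GSCT library and lowest in the shallowest, and the part of depth in that order was not tested. With the Wilson interval at the 95% level, the lowest GSCT share was 0.594% to 0.644% and the highest grass carp share 0.0264% to 0.0293%. That interval covers counting error only and takes counts as independent. Amplified reads were not collapsed to molecules, so it can be too narrow even for that error. In bulk sperm RNA, more mitochondrial RNA per cell and more cells of a kind that holds more of it cannot be told apart. Other sources of these counts were not tested.

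The 13 genes passed the quasi-likelihood test of edgeR, adjusted by Benjamini-Hochberg over all 28165 named genes tested, at adjusted p from 1.52e-11 to 2.85e-10. Their median log2 fold change was 6.25, beside -0.01 over all genes tested. Of all genes tested 3.47% were called higher in GSCT libraries (978 genes) and 0.845% lower (238 genes; 718 higher and 424 lower when libraries were scaled by size alone). Each library is 1 fish, so the p-values weigh the difference against the spread between fish. Of the 13, ATP8 entered the test through the GSCT libraries, as set out below.

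Complex I, which takes electrons from NADH and pumps protons, has 7 subunits among the 13. ND5, at the far end of the membrane arm, had 3021, 2091 and 1037 counts per 1000000 named counts (CPM) in GSCT libraries, against 40.3, 22.5, 19.4, 39.7 and 14.99 CPM in grass carp libraries. It was the gene with the most counts in each GSCT library, and its log2 fold change was 6.34 ± 0.35 (SE; adjusted p = 1.12e-10, edgeR). ND4, a neighbouring proton-pumping subunit, had 2219, 1500.4 and 769 CPM in GSCT libraries, against 32.8, 18.6, 10.9, 33.0 and 13.5 CPM in grass carp libraries. Its log2 fold change was 6.23 ± 0.35. ND2, the proton-pumping subunit on the other side of ND4, had 1688, 1195 and 576 CPM in GSCT libraries, against 36.5, 23.5, 11.3, 35.2 and 19.4 CPM in grass carp libraries. With a log2 fold change of 5.63 ± 0.33 it stood, with COX1, at the low end of the 13 changes.

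ND1, at the base of the membrane arm where ubiquinone binds, had 1566, 1033 and 520.0 CPM in GSCT libraries, against 18.8, 13.1, 10.002, 27.0 and 12.4 CPM in grass carp libraries (log2 fold change 6.17 ± 0.31). The small subunits ND3 and ND4L lay lower in counts, as shorter genes. ND3 had 423, 317 and 135 CPM in GSCT libraries, against 5.08, 6.53, 2.45, 8.99 and 5.30 CPM in grass carp libraries (log2 fold change 5.96 ± 0.29). ND4L had 389.6, 213 and 154 CPM in GSCT libraries, against 4.10, 2.88, 0.755, 7.49 and 4.93 CPM in grass carp libraries (log2 fold change 6.27 ± 0.32). Both separated the groups fully, as did the other protein genes, and the share of all named genes that do so was not counted. ND6 is the one protein gene of the vertebrate mitochondrial genome on the strand opposite to the others. It had 708, 606 and 249 CPM in GSCT libraries, against 10.2, 4.44, 3.96, 8.24 and 5.12 CPM in grass carp libraries. Its log2 fold change of 6.49 ± 0.30 was the largest of the 13 (adjusted p = 1.52e-11, edgeR), though within the errors of its neighbours in that order. The sources used here do not say whether counting used strand, so ND6 reads and reads of precursors from the opposite strand cannot be told apart.

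CYTB, the cytochrome b subunit of complex III that passes electrons from ubiquinol on to cytochrome c, had 1876, 1276 and 592 CPM in GSCT libraries, against 25.4, 17.0, 12.8, 17.2 and 12.2 CPM in grass carp libraries. Its log2 fold change was 6.28 ± 0.31 (adjusted p = 2.99e-11, edgeR).

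Complex IV, cytochrome c oxidase, reduces oxygen to water. COX1, which holds its catalytic centre, had 2609.9, 1687 and 942 CPM in GSCT libraries, against 55.7, 40.0, 20.0, 48.7 and 23.9 CPM in grass carp libraries. COX1 had the most counts of the 13 in every grass carp library, and its log2 fold change was 5.63 ± 0.33 (adjusted p = 2.85e-10, edgeR). COX2, which accepts electrons from cytochrome c, had 1028, 695 and 348 CPM in GSCT libraries, against 13.1, 12.3, 6.04, 14.2 and 5.48 CPM in grass carp libraries (log2 fold change 6.25 ± 0.31). COX3, the remaining core subunit, had 1181, 817 and 446 CPM in GSCT libraries, against 18.4, 13.3, 7.55, 13.5 and 7.13 CPM in grass carp libraries (log2 fold change 6.20 ± 0.30). The lowest GSCT library was above the highest grass carp library for all 3.

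ATP synthase makes ATP from the proton gradient, and ATP6 forms part of its proton channel. ATP6 had 1064, 681 and 377 CPM in GSCT libraries, against 16.02, 9.93, 6.04, 11.98 and 5.48 CPM in grass carp libraries (log2 fold change 6.29 ± 0.31). ATP8, a short membrane subunit, was the lowest of the 13, with 152, 117 and 39.8 CPM in GSCT libraries, against 1.95, 0, 1.32, 4.49 and 1.46 CPM in grass carp libraries. It rested on at most 10 counts in a grass carp library, and its log2 fold change was 6.30 ± 0.36 (adjusted p = 2.46e-10, edgeR). Its grass carp levels alone would not have passed the filter on low counts. ATP8 thus entered the test through the GSCT libraries, and its call is a description. As plain ratios of mean CPM, GSCT over grass carp, the 13 genes ran from 45.8 for ND2 to 81.6 for ND6.

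**Figure D2:**
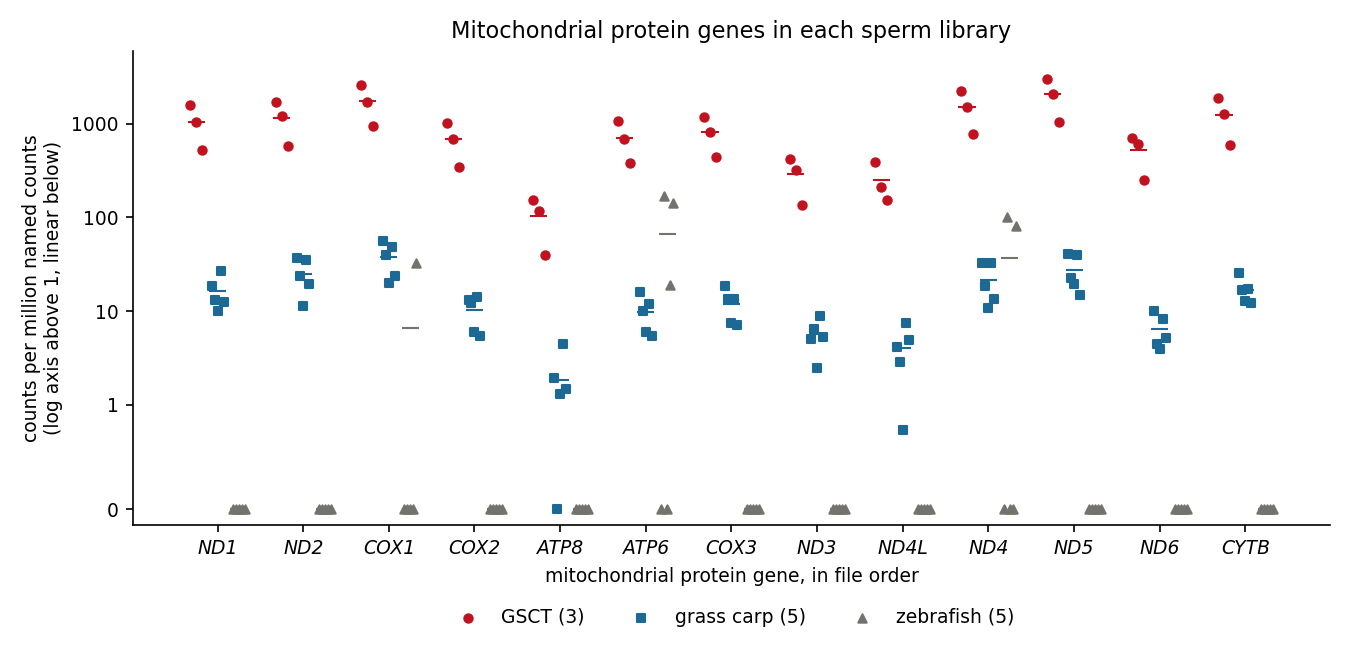
Counts per 1000000 named counts (vertical, log axis above 1 and linear below) of the 13 mitochondrial protein genes (horizontal) in 3 GSCT, 5 grass carp and 5 zebrafish libraries; each point is 1 library and each short line a group mean. For every gene the 3 GSCT points lie above all grass carp and zebrafish points, and 10 genes are at 0 in all 5 zebrafish libraries. The share of all named genes that separate in this way was not counted.

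Within a GSCT library the counts of a protein gene followed its length closely. Across the 13 genes, Pearson's r of mean CPM with gene length (RefSeq, HZGC01) was 0.9996 in GSCT and 0.919 in grass carp libraries. These are descriptions over genes that share libraries and depth and lie on 1 small genome. Per kilobase of gene, mean levels in GSCT libraries ran from 624 CPM for ATP8 to 1126 CPM for COX1, with 12 of the 13 genes at 837 CPM or more. In grass carp libraries they ran from 11.2 CPM per kilobase for ATP8 to 24.3 for COX1 and 24.1 for ND2, with the 11 genes other than COX1 and ND2 at 16.7 or less. Of the summed length of 11417 bases, ATP8 is 1.45% and took 0.816% ± 0.159 of the 13-gene counts for the GSCT group (SD, n = 3), against 0.931% ± 0.623 for the grass carp group (SD, n = 5). Reads that span the overlap of ATP8 with ATP6 can belong to either gene.

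**Figure D3:**
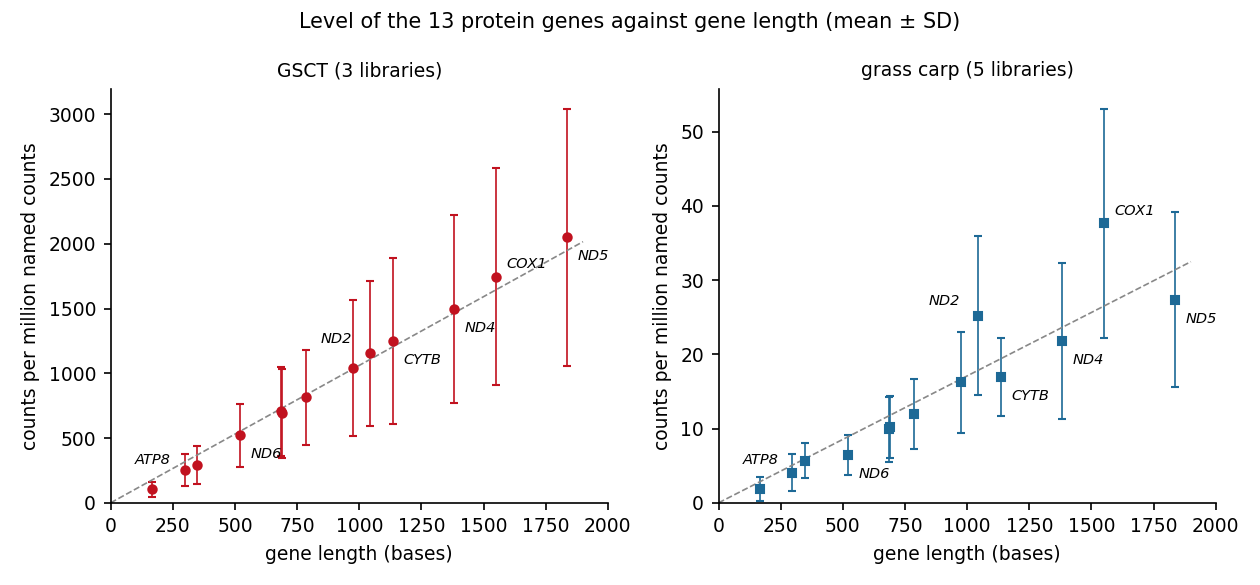
Mean counts per 1000000 named counts (vertical, linear) of the 13 protein genes against gene length in bases (horizontal), for 3 GSCT libraries at left and 5 grass carp libraries at right; bars are SD over libraries and the dashed line is the level of equal counts per base. The GSCT genes lie along the line (r = 0.9996), while COX1 and ND2 lie above it in grass carp libraries (r = 0.919).

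The make-up of the 13-gene counts separated the groups for 4 genes. COX1 took 13.8% to 15.2% of the 13-gene counts in GSCT and 17.8% to 21.7% in grass carp libraries, where it makes up 13.6% of the length. ND2 took 9.31% to 9.77% in GSCT and 10.1% to 14.7% in grass carp libraries, beside 9.15% of the length. Both shares were lower in every GSCT library than in every grass carp library. The reverse held for ND4, with 12.3% to 12.4% in GSCT and 9.72% to 12.2% in grass carp libraries, and for ND6, with 3.95% to 4.96% in GSCT and 2.41% to 3.89% in grass carp libraries. Both of these gaps were narrow. For ND4 it was 12.27% against 12.22%, the latter on 44 counts in grass carp replicate 4. For ND6 the highest grass carp share rested on 28 counts, in replicate 5. For the 9 other genes the ranges overlapped, as for ND5 with 16.8% to 17.1% in GSCT and 11.4% to 17.3% in grass carp libraries. Shares of 1 total move together, the grass carp totals are only 360 to 1424 counts, and these differences were not tested.

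**Figure D4:**
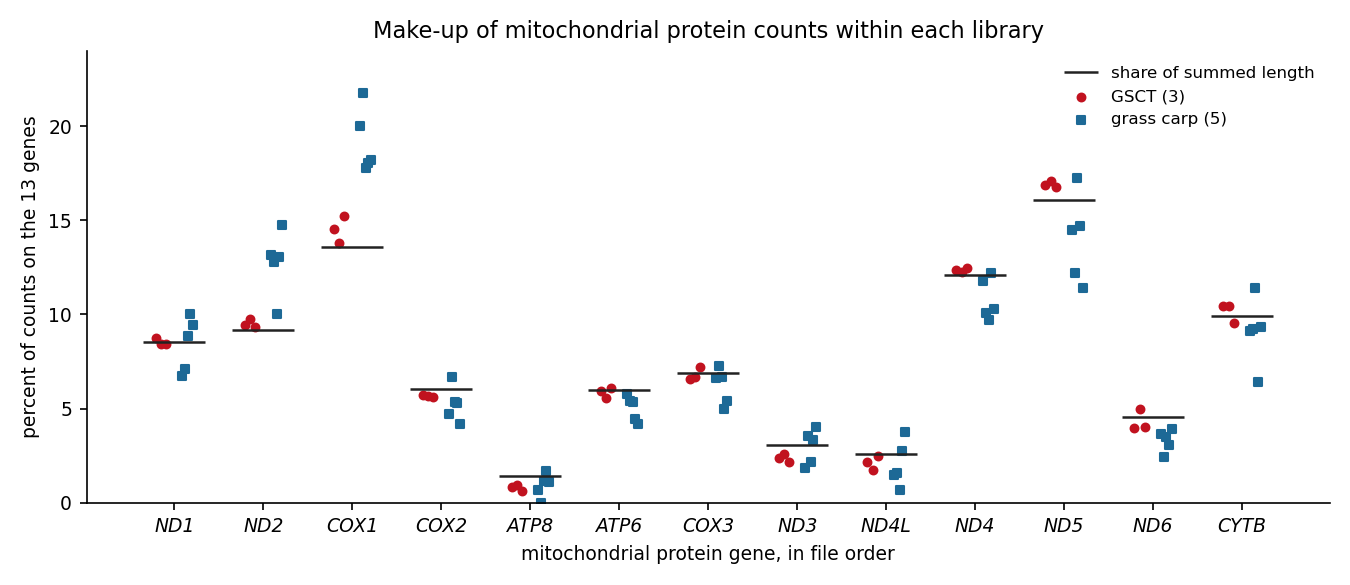
Share of the counts on the 13 protein genes taken by each gene (vertical, percent) in 3 GSCT and 5 grass carp libraries (points), with black lines for each gene's share of the summed length. COX1 (13.8% to 15.2% in GSCT, 17.8% to 21.7% in grass carp) and ND2 (9.31% to 9.77% in GSCT, 10.1% to 14.7% in grass carp) stand apart between the groups.

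The unnamed entries were also higher in GSCT than in grass carp sperm, with entry 4 as the exception to the test. Of the 24, 20 passed the filter on low counts, and 19 of these were called higher and 0 lower. Other than entries 2 and 4, the tested ones had at most 9 counts in any grass carp library, below the minimum of 10, so they entered through the GSCT libraries and their direction was fixed by that. With these entries added to the table, 3.61% of the 28185 entries tested were called higher in GSCT libraries and 0.876% lower. Entries 1, 3, 6 and 10 did not pass the filter. In 22 of the 24 entries every GSCT library lay above every grass carp library, and entries 1 and 4 overlapped. The share of all entries that separate in this way was not counted, so the 22 are a description.

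Entry 2, the second of the 5 before ND1, had 4258, 2301 and 192 counts in GSCT libraries, against 130, 79, 51, 31 and 104 counts in grass carp libraries. Relative to the protein genes it was nearly level among GSCT libraries and more spread among grass carp libraries. For each count on the 13 genes it had 0.0913, 0.0880 and 0.0824 counts in GSCT and 0.0913, 0.112, 0.0854, 0.0861 and 0.145 counts in grass carp libraries. Its log2 fold change was 5.88 ± 0.32 (adjusted p = 9.28e-11, edgeR), within the span of the protein genes.

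Entry 4, the fourth of the 5 before ND1, did not keep that proportion in all libraries. It had 11364, 4216 and 355 counts in GSCT libraries, against 6898, 152, 113, 184 and 2408 counts in grass carp libraries. Grass carp replicates 1 and 5 stood far above the other grass carp libraries, and the groups overlapped. For each count on entry 2 it had 2.67, 1.83 and 1.85 counts in GSCT and 53.1, 1.92, 2.22, 5.94 and 23.2 counts in grass carp libraries. Replicates 2 and 3 of grass carp were thus near the GSCT ratios while replicates 1 and 5 were not. The log2 fold change of 2.66 ± 0.80 did not pass (adjusted p = 0.0622, edgeR; 3.97 and adjusted p = 4.98e-04 without grass carp replicate 1; adjusted p from 2.23e-08 to 0.908 over all alternatives).

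The other 22 unnamed entries were low, at 4 to 247 counts in GSCT replicate 1, 3 to 114 in replicate 2 and 0 to 15 in replicate 3, and at 9 counts or fewer in every grass carp library. Together they had 2147, 1208 and 104 counts in GSCT libraries, against 62, 23, 27, 15 and 19 counts in grass carp libraries. For every 100 counts on the protein genes that was 4.60, 4.62 and 4.46 counts in GSCT and 4.35, 3.27, 4.52, 4.17 and 2.64 counts in grass carp libraries. The median entry of the 22 had 90, 49 and 4.5 counts in GSCT libraries, where the median protein gene had 3074, 1747 and 168. In GSCT libraries 22, 22 and 21 of them had at least 1 count, against 20, 12, 12, 12 and 12 in grass carp libraries.

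Entry 24, the last of the files, was the highest of the 22 in summed GSCT counts, with 247, 113 and 15 counts in GSCT libraries, against 9, 4, 7, 0 and 2 counts in grass carp libraries (log2 fold change 6.04 ± 0.33, adjusted p = 1.09e-10, edgeR). Entry 11, in the run of 5 between ND2 and COX1, had 204, 112 and 13 counts in GSCT libraries, against 4, 2, 1, 1 and 3 counts in grass carp libraries (log2 fold change 6.80 ± 0.32). Entry 23, just after CYTB, had 155, 114 and 7 counts in GSCT libraries, against 3, 2, 1, 1 and 0 counts in grass carp libraries (log2 fold change 7.13 ± 0.40). Entry 7, between ND1 and ND2, came next with 145, 59 and 6 counts in GSCT libraries, against 3, 1, 3, 2 and 1 in grass carp libraries (log2 fold change 6.25 ± 0.42).

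The single entries 16, 17, 18 and 22, each alone between a pair of protein genes, summed to 184, 142, 133 and 165 counts over the GSCT libraries, against 4, 3, 11 and 6 over the grass carp libraries. Their log2 fold changes were 7.27 ± 0.45, 7.24 ± 0.48, 5.46 ± 0.45 and 6.62 ± 0.44, and entry 18 was the smallest change of those tested among the 22. Entries 19, 20 and 21 before ND5 summed to 415 counts over the GSCT libraries, against 18 over the grass carp libraries, with log2 fold changes of 6.49 ± 0.49, 6.34 ± 0.49 and 6.22 ± 0.50. Entries 14 and 15 before COX2 summed to 244 against 6 counts, with 6.64 ± 0.53 and 7.29 ± 0.54, and the change of entry 15 was the largest of those tested among the 22. Of the run between ND2 and COX1, entries 9, 12 and 13 gave 6.46 ± 0.57, 5.69 ± 0.50 and 6.32 ± 0.44. Entries 8 and 5 gave 6.40 ± 0.42 and 6.65 ± 0.56. All of these passed at an adjusted p of 1.85e-07 or less (edgeR), and with so few grass carp counts their order is not resolved.

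Among the 4 entries left untested, entry 10 had 105, 49 and 1 counts in GSCT libraries, against 5, 1, 2, 1 and 0 in grass carp libraries, and entry 3 had 74, 47 and 1, against 5, 0, 2, 0 and 0. Entry 6, next to ND1 on its far side, had 33, 22 and 1 counts in GSCT libraries and 1 count in all in grass carp libraries. Entry 1, the first of the run, had 4, 3 and 0 counts in GSCT libraries and 0 in every grass carp and zebrafish library.

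**Figure D5:**
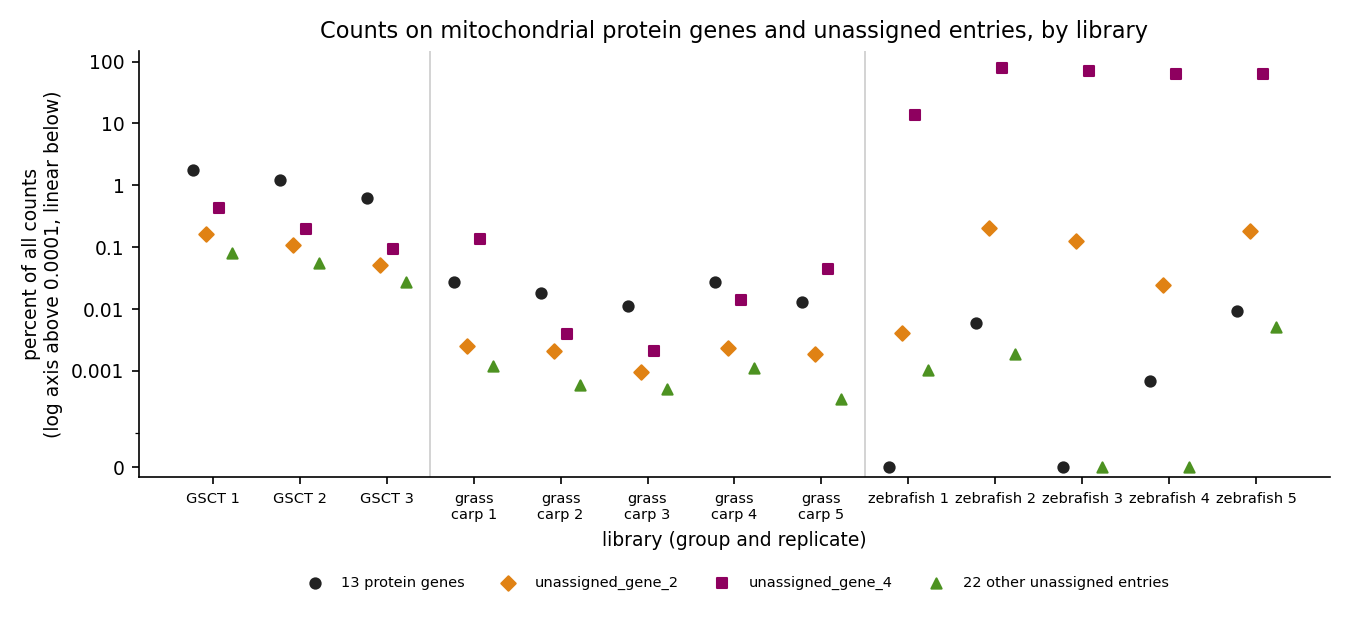
Percent of all counts (vertical, log axis above 0.0001 and linear below) on the 13 protein genes, entry 2, entry 4 and the 22 other unnamed entries, for each of the 13 libraries (horizontal, GSCT, grass carp, zebrafish). GSCT libraries have 0.0940% to 0.434% on entry 4, grass carp libraries 0.00213% to 0.135% and zebrafish libraries 13.8% to 77.7%, while the protein genes are highest in GSCT libraries.

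Nuclear genes of mitochondrial function were counted in the same comparison of GSCT with grass carp sperm. Of 57 nuclear genes for respiratory chain and ATP synthase subunits present under the symbols searched, 54 were tested, 0 were called higher and 1 lower, with a median log2 fold change of -0.13. The 1 was ndufs4, a complex I subunit, at -1.27 ± 0.34 (adjusted p = 0.0351, edgeR). Of 42 genes for upkeep and expression of the mitochondrial genome, 0 were called in either direction by edgeR, 6 had an unadjusted p under 0.05, and the median was -0.07. Among them tfam, which packages mitochondrial DNA and starts its transcription, had -0.71 ± 0.25 (adjusted p = 0.107, edgeR), and polg2, the accessory subunit of its polymerase, 0.60 ± 0.20 (adjusted p = 0.0921, edgeR). Of 19 mitochondrial tRNA synthetases, 1 was called higher, ears2 at 0.78 ± 0.20 (adjusted p = 0.0326, edgeR), and 0 lower, with a median of -0.01. Of 75 mitochondrial ribosomal proteins, 0 were called higher and 1 lower, mrpl49 at -1.77 ± 0.47 (adjusted p = 0.0352, edgeR), with a median of -0.18. The summed level was lower in every GSCT library than in every grass carp library for the ribosomal proteins, at 841 to 915 CPM in GSCT, against 987 to 1031 CPM in grass carp libraries. The same held for the upkeep and expression genes, at 1119 to 1162 CPM in GSCT, against 1199.9 to 1266 CPM in grass carp libraries. These sums use library size without TMM factors. Scaled by library size alone, the median log2 fold change over all genes tested was -0.08. How often the sum of a list separates in this way was not counted, so the sums are a description. The background shares of 3.47% higher and 0.845% lower apply to the calls in these lists as well.

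Markers of cell types that a sperm sample could hold were measured in the same libraries, and their part in the mitochondrial difference was not tested. All 30 sperm flagellum and head genes measured were detected in every GSCT and grass carp library. So were the 18 leukocyte and 12 testis somatic cell markers, and the share of all named genes detected in this way was not counted. The sperm genes summed to 1496 to 1580.5 CPM in GSCT and 1545 to 1627 CPM in grass carp libraries. By edgeR 0 of 30 were called, with 0 at an unadjusted p under 0.05. In the zebrafish group 10 of these 30 had no count in any library. Red blood cell markers summed to 358 to 371 CPM in GSCT and 354 to 389 CPM in grass carp libraries, with 1 of 12 called, alas2, lower in GSCT (log2 fold change -1.22 ± 0.31, adjusted p = 0.0288, edgeR). Leukocyte markers summed to 559 to 605 CPM in GSCT and 635 to 833 CPM in grass carp libraries, and every GSCT library was below every grass carp library, with 0 of 18 called by edgeR and 5 at an unadjusted p under 0.05. How often the sum of a list separates in this way was not counted. Testis somatic cell markers summed to 318 to 352 CPM in GSCT and 340.0 to 371 CPM in grass carp libraries, with 0 of 12 called by edgeR and 1 at an unadjusted p under 0.05. Of the defining genes, the hemoglobin gene hbaa2 had 0 to 4.61 CPM in GSCT, against 3.74 to 7.82 CPM in grass carp libraries, hbba1 had 5.38 to 7.96 CPM in GSCT, against 3.74 to 7.58 CPM in grass carp libraries, and hbba2 had 3.84 to 7.96 CPM in GSCT, against 0.749 to 6.04 CPM in grass carp libraries. The leukocyte gene ptprc had 48.4 to 74.3 CPM in GSCT, against 63.6 to 80.4 CPM in grass carp libraries, and amh, a Sertoli cell hormone, had 48.8 to 58.4 CPM in GSCT, against 49.0 to 63.5 CPM in grass carp libraries. Named rRNA genes, 94 in number, took 0.987% to 1.79% of all counts in GSCT and 0.0552% to 0.117% in grass carp libraries. They were thus also higher in every GSCT library than in every grass carp library, and their part in the mitochondrial difference was not tested.

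Against zebrafish sperm, GSCT sperm had more counts on all the mitochondrial protein genes and far fewer on entry 4. The protein genes took 0, 0.0270%, 0, 0.00190% and 0.0256% of named counts in the 5 zebrafish libraries, a mean of 0.0109% ± 0.0141 (SD, n = 5; 0.00688 without replicate 2 and 0.00723 without replicate 5), below each of the 3 GSCT shares given above. Of the 13 genes, 10 had 0 counts in all zebrafish libraries, where 3 counts over the group would be 5.03 CPM. Against that floor, the mean level in GSCT libraries was at least 408-fold higher for ND5, 248-fold for CYTB, 229-fold for ND2, 207-fold for ND1, 162-fold for COX3 and 137-fold for COX2. For ND6 it was at least 104-fold higher, for ND3 58.1-fold, for ND4L 50.2-fold and for ATP8 20.5-fold. These are bounds on aligned counts and take in the depth of counting only. They also depend on which zebrafish reads align to these entries, which was not tested. The remaining 3 genes had a few zebrafish counts. ATP6 had 0, 10, 0, 2 and 26 counts in zebrafish libraries, ND4 0, 6, 0, 0 and 15, and COX1 0, 0, 0, 0 and 6.

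In edgeR's test 12 of the 13 genes entered and 12 were called higher in GSCT than in zebrafish libraries, 0 lower (11 of 12 without zebrafish replicate 3), and ATP8 did not pass the filter. As 9 of the 12 had 0 counts in every zebrafish library, they passed the filter through the GSCT libraries alone and could only be called higher. COX1, ND4 and ATP6 were also too low in zebrafish libraries to pass the filter there, so they too entered through the GSCT libraries. The count of 12 and the calls of these 3 genes below are thus descriptions. Of all named genes tested 77.3% were called higher in GSCT libraries and 9.94% lower, so a call in this direction was common. The fitted median of the 12 was 11.65 on the log2 scale, beside 4.13 over all genes tested. It was 6.90 with the 9 genes at 0 placed at their bounds, which use library size without TMM factors. Scaled by library size alone, the median over all genes tested was 5.26. That median keeps genes at 0 in zebrafish libraries at their fitted values, so it is not a like measure for 6.90. COX1 had a log2 fold change of 6.45 ± 1.57 (adjusted p = 3.87e-04, edgeR; 13.36 without zebrafish replicate 5, which held its counts). ND4 had 4.41 ± 1.40 (adjusted p = 0.00462, edgeR). ATP6 had 2.48 ± 1.16 (adjusted p = 0.0470, edgeR), and its call was lost on leaving out GSCT replicate 1 (adjusted p = 0.0550) or zebrafish replicate 1, 2, 3 or 4 (adjusted p = 0.0786, 0.182, 0.0502 and 0.0897). Over all its alternatives the adjusted p of ATP6 ran from 5.82e-05 to 0.190.

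Entry 4 dominated the zebrafish libraries. It held 39695, 208176, 1105, 188659 and 314507 counts there, which is 13.8%, 77.7%, 69.3%, 64.1% and 63.1% of all counts, against 0.434%, 0.196% and 0.0940% in GSCT libraries. Zebrafish replicate 1 was the low one, and in that library named rRNA genes took 74.3% of all counts, against 2.82% to 18.9% in the other 4. Of the counts on the 24 unnamed entries, entry 4 had 99.7% to 99.96% in each zebrafish library and 54.5% to 64.0% in each GSCT library. For each count on entry 2 it had 3308, 386, 552.5, 2657 and 342.6 counts in zebrafish libraries, beside 1.83 to 2.67 in GSCT libraries. The groups did not overlap, and the log2 fold change of -10.04 ± 3.58 passed (adjusted p = 0.0106, edgeR; -10.34 and 0.0302 without zebrafish replicate 3). The call was lost on leaving out any 1 GSCT library (adjusted p = 0.294, 0.396 and 0.192 without replicate 1, 2 and 3), with an adjusted p from 9.23e-12 to 0.396 over all alternatives.

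Entry 2 had 12, 539, 2, 71 and 918 counts in zebrafish libraries. On the CPM scale that was 509 to 1636 in GSCT libraries, against 48.3 to 9099 in zebrafish libraries, so the groups overlapped, and its log2 fold change of -2.16 ± 1.69 did not pass (adjusted p = 0.229, edgeR) and turned to 0.41 with RLE scaling. Of the 22 others, 19 had 0 counts in every zebrafish library. Entry 11 had 2, 3, 0, 0 and 20 counts in zebrafish libraries, entry 7 had 1, 2, 0, 0 and 3, and entry 21 had 0, 0, 0, 0 and 3. Of the 24 entries 3 were tested in GSCT against zebrafish libraries, 0 called higher and 1 lower (also 1 lower without zebrafish replicate 3), beside 77.3% of all 5625 entries tested called higher and 9.94% lower. That count changed with the setting: 18 of 24 were called higher with no filter, 12 of 17 with all 3 groups in 1 fit and 21 of 24 with DESeq2, most of these entries being at 0 in zebrafish libraries. Over all entries tested, 20498 of 30361, 20640 of 26176 and 23675 of 30172 were called higher in these settings, in that order. Entry 11 had a log2 fold change of -0.63 ± 0.50 (adjusted p = 0.234, edgeR), which turned to 1.81 with RLE scaling (adjusted p = 0.00418, edgeR).

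Grass carp and zebrafish sperm were both poor in counts on the mitochondrial protein genes, and few genes could be tested. Only 3 of the 13 passed the filter. ND4 was lower in grass carp than in zebrafish libraries, with a log2 fold change of -2.42 ± 0.86 (adjusted p = 0.0183, edgeR), but its libraries overlapped, its zebrafish counts lay in replicates 2 and 5, and the fold change turned to 0.23 with RLE scaling. Without zebrafish replicate 2 its adjusted p was 0.148, and without replicate 5 it was 0.770. COX1 had 0.21 ± 1.04 (adjusted p = 0.854, edgeR; 9.44 and adjusted p = 0.0477 without zebrafish replicate 5). ND5, at 0 in zebrafish libraries, was at least 5.45-fold higher in grass carp libraries by mean CPM (adjusted p = 0.0865, edgeR). That bound, too, depends on which zebrafish reads align there. The call count was thus 0 higher and 1 lower (1 higher and 2 lower of 8 tested without zebrafish replicate 3, and 0 of 0 tested without any 1 grass carp library), beside 75.7% of all 20106 named genes called higher in grass carp libraries and 6.47% lower. The count changed direction with the setting, with 9 of 13 called higher by DESeq2, 6 of 13 with all 3 groups in 1 fit, 4 of 13 with no filter and 2 of 3 with RLE scaling. In the same order of settings, 25926 of 30393, 21047 of 26159, 20815 of 30501 and 19145 of 20106 named genes were called higher. The median of the 3 genes that passed the filter was 0.21 on the log2 scale, beside 8.53 over all genes tested. In 9 of the 13 genes every grass carp library was above every zebrafish library, where all 9 were at 0. How many of all named genes separate likewise was not counted. In a single zebrafish library 3 counts are 12.1 to 6160.2 CPM, so grass carp levels such as 2.45 to 8.99 CPM for ND3 were not detectable there and the separation was not a measured difference.

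Of the unnamed entries 2 were tested between grass carp and zebrafish sperm, 0 called higher and 1 lower (also 1 lower without zebrafish replicate 3), beside 75.6% of all 20108 entries called higher in grass carp libraries and 6.47% lower. Entry 2 was lower in grass carp libraries, at 9.62 to 25.4 CPM, against 48.3 to 9099 CPM in zebrafish libraries, with a log2 fold change of -8.47 ± 1.73 (adjusted p = 0.00126, edgeR). Its grass carp levels alone would not have passed the filter on low counts. It entered through the zebrafish libraries, so its call is a description. The level in zebrafish replicate 3, 4107 CPM, rested on 2 counts. Entry 4 was lower in every grass carp library, at 21.3 to 1348 CPM, than in any zebrafish library, but its log2 fold change of -13.14 ± 8.79 did not pass (adjusted p = 0.174, edgeR). It passed on leaving out any 1 grass carp library (adjusted p = 6.05e-04, 0.00295, 0.00167, 0.00122 and 0.00117 without replicate 1, 2, 3, 4 and 5), and over all alternatives its adjusted p ran from 1.37e-17 to 0.573. The 3 comparisons share libraries by pairs, so their values stand side by side and are not independent of each other.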

How the data were processed

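Raw read counts per annotation entry were deposited by the authors, 1 file for each of 13 libraries, all listing 31338 entries in 1 order. The submitters' processing notes name HISAT2, featureCounts and Subread, with CASAVA, FastQC, fastp and SAMtools, without versions. How reads with several alignments were handled, whether strand was used, and which build and annotation were taken is not given in the sources used here. Dropping such reads would lower counts of genes that have nuclear copies. No 2 libraries held identical counts.

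Counts were tested as deposited with edgeR 4.0.16 (R 4.3.3): the libraries of the 2 groups compared, TMM factors, filterByExpr (minimum count 10, minimum total 15), glmQLFit, then glmQLFTest, with calls at 0.05 after Benjamini-Hochberg adjustment over all entries tested. Fold changes are log2, first group named over second, with SE taken from the F statistic. The 24 unnamed entries held 0.172% to 0.678% of all counts in GSCT, 0.00360% to 0.138% in grass carp and 13.8% to 77.9% in zebrafish libraries. They stayed out of library sizes and entered a second fit that kept those sizes. CPM are counts per 1000000 named counts. Lower bounds use 3 counts over the group's summed counts. Gene lengths and spacing came from RefSeq (HZGC01), whose build was not matched to the files, so no coordinates are given. All 37 members were eligible for naming, and of other lists at most the 2 members with the lowest p in GSCT against grass carp, besides amh, ptprc, hbaa2, hbba1 and hbba2, chosen after their values were seen. Members and lists were chosen with earlier results of these data known. Alternatives were RLE factors, library size alone, library sizes with or without the members, no filter, all 3 groups in 1 fit, a replicate block, DESeq2 1.42.0, and leaving out each library. The edgeR fit of named entries was run on simulated data for each of the 3 comparisons. The simulated counts had the same dispersion in every group. The second fit and the alternatives were not simulated.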

Additional observations from a re-analysis of the deposited data

Results flagged for a closer look

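Zebrafish replicate 1 stood apart from the other 4 zebrafish libraries in the share of all counts on the 24 unnamed entries, at 13.7867%, against 63.3% to 77.9% in the other 4. The gap between it and the next higher library exceeded the 95% critical value of Dixon's test. The share on entry 4 alone was low in the same library, at 13.7815%, against 63.1% to 77.7% in the other 4. The same library had the highest share of named rRNA counts, 74.3% of all counts. Chance gives such a gap in about 1 of 20 groups, and 32 groups of values were examined, of which these 2 were beyond the critical value.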

How the results depend on the processing

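Between GSCT and grass carp sperm, all 13 protein genes were called higher under each of 16 alternatives (log2 fold change 5.22 to 6.82, adjusted p at most 0.00176), and 16 to 24 unnamed entries were. Other than entry 4, each of the 19 entries called kept its direction and its call wherever it was tested (4.90 to 8.57, adjusted p at most 0.0309). Apart from entry 2, these entries, like ATP8, had passed the filter through the GSCT libraries. Their direction was fixed by that, so its persistence is a description. Over all named genes the calls were 978 higher and 238 lower, against 458 and 54 with all 3 groups in 1 fit, 262 and 23 without GSCT replicate 2, and 823 and 139 with DESeq2. Against zebrafish libraries results were less steady. Protein genes called lower in grass carp numbered 1, but 0 with RLE factors, library size alone or DESeq2, and 0 to 2 when 1 library was left out (0 tested without any 1 grass carp library). With RLE factors, library size alone and DESeq2, 281 of 20106, 543 of 20106 and 294 of 30393 named genes were called lower. Protein genes called higher numbered 0, but 2 with RLE factors, 1 with library size alone, 4 with no filter, 6 with all 3 groups in 1 fit and 9 with DESeq2. Most of all named genes tested were called higher in each of these settings, for instance 25926 of 30393 with DESeq2. Unnamed entries called lower in GSCT numbered 1, but 0 with RLE factors, library size alone or all 3 groups in 1 fit, 2 with unnamed entries in library sizes, and 0 to 2 when 1 library was left out. In these 4 settings, in that order, 163 of 5625, 344 of 5625, 982 of 26176 and 869 of 9989 entries were called lower. Unnamed entries called higher numbered 0, but 1 with RLE factors or unnamed entries in library sizes, 18 with no filter, 12 with all 3 groups in 1 fit and 21 with DESeq2. Here too most of all entries tested were called higher, for instance 23675 of 30172 with DESeq2. Unnamed entries called lower in grass carp numbered 1, but 4 with no filter, all 3 groups in 1 fit or DESeq2, and 1 to 2 when 1 library was left out. With no filter, all 3 groups in 1 fit and DESeq2, in that order, 1040 of 30524, 1027 of 26176 and 298 of 30416 entries were called lower. Some log2 fold changes turned sign. For GSCT over zebrafish, entry 2 (-2.16) gave 0.41 with RLE factors and 0.17 with DESeq2. Entry 11 (-0.63) gave 1.81 with RLE factors, 0.56 with library size alone, 1.73 with DESeq2, 1.03 without zebrafish replicate 5 and -1.60 without zebrafish replicate 2. For grass carp over zebrafish, ND4 (-2.42) gave 0.23 with RLE factors and 0.58 with DESeq2. RLE factors moved the median of all genes, GSCT over zebrafish, to 6.39 from 4.13. As a share of the 37 members' counts, the unnamed entries held 24.1% in GSCT, 50.2% in grass carp and 99.9953% in zebrafish libraries. Their share of all counts was 0.266% in GSCT without replicate 1 and 0.0184% in grass carp without replicate 1. The causes were not tested. In zebrafish libraries 3 counts are 12.1 to 6160.2 CPM.

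Replicate numbers were not taken to pair these fish. Deviations of same-numbered GSCT and grass carp libraries correlated at 0.0458, 0.0419 and -0.0145, and those of unlike numbers at -0.0938 to 0.0762. Such values cannot show whether same-numbered libraries shared a step of processing. With the number as a block, 13 protein genes and 20 unnamed entries were called higher in GSCT than in grass carp sperm, entry 4 among them (4.38, adjusted p = 2.23e-08, edgeR). In that fit 783 of 28165 named genes and 805 of 28185 entries were called higher. For GSCT over zebrafish, the block gave 0.32 for entry 2 and 0.76 for entry 11. For grass carp against zebrafish, it gave 0 protein genes and 2 unnamed entries called lower, and 1 protein gene higher. There 14697 of 20106 named genes were called higher and 571 lower, and 571 of 20108 entries were called lower.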
